A study of Mus musculus with 12 samples.

Results

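Cytosolic ribosomal protein genes encode the proteins that, with the ribosomal RNAs, form the large (Rpl) and small (Rps) subunits of the ribosome. Members were the genes whose platform symbol begins with Rpl or Rps and a digit, or is Rplp0, Rplp1, Rplp2 or Rpsa, without the Rps6k kinases and the pseudogene symbols. The platform named 65 such genes with 96 probes. Of these, 59 genes with 80 probes were detected (detection p under 0.05 on at least 4 of 12 arrays), out of 10575 detected genes in all, and 34 of the 59 were Rpl or Rplp genes and 25 were Rps genes or Rpsa. Probes for Rpl14, Rpl17, Rpl39l, Rpl6, Rps20 and Rps23 were detected on 0 arrays and have no values here.

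The tissue was the lower abdominal muscle of male FVB/N mice aged 1 month, read on Illumina bead arrays with biotin-labelled cRNA in 1 colour. AromhumH and AromhumL are humanized aromatase transgenic lines, with higher human aromatase expression in AromhumH and lower in AromhumL per the labels, and WT mice were the controls. Aromatase converts androgens to oestrogens, and the series asked how such a shift acts on this muscle. Each group had 4 arrays. The labels give neither the promoter of the transgene, nor the number of founders, nor whether the arrays of a group came from different animals. The p-values therefore describe variation among these arrays, some of which may be technical. In whole muscle, fewer cells of a type and less RNA per cell cannot be told apart.

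Most ribosomal proteins are present in equal numbers in the ribosome. The mRNAs of ribosomal proteins are regulated together and in growing cells are among the most abundant messages. Their mRNAs begin with a run of pyrimidines, the TOP tract, through which mTOR signalling sets how well they are translated. In skeletal muscle, ribosome number accompanies fibre growth, and the muscle-restricted protein Rpl3l takes the place of Rpl3 in mature fibres.

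The starts of the members described most closely are shown with the pyrimidine runs near them. They are the 2 genes that differed between the lines, Rpl39 and Rpl13a, then Rps9, Rpl12 and Rplp0, and the muscle-restricted Rpl3l at each of its 2 annotated starts. Each line gives 15 bases before and 15 bases from the annotated RefSeq start (GRCm38.p6), 5′ to 3′ on the gene's strand, and capitals mark the longest run of C and T in these 30 bases.
Rpl39: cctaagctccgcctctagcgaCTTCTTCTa
Rpl13a: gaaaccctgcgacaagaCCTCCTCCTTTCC
Rps9: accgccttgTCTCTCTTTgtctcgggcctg
Rpl12: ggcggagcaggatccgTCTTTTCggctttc
Rplp0: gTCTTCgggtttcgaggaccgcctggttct
Rpl3l, upstream start: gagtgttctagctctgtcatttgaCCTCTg
Rpl3l, downstream start: gtcatcaacagctacagtgCCCCaaatgtc
The windows lie at chrX:37085208-37085237 (minus strand) for Rpl39, chr7:45128731-45128760 (minus) for Rpl13a, chr7:3704026-3704055 (plus) for Rps9, chr2:32961697-32961726 (plus) for Rpl12 and chr5:115559452-115559481 (plus) for Rplp0. Those of Rpl3l lie at chr17:24727811-24727840 and chr17:24732670-24732699 (both plus). Runs of 8, 13, 9, 7 and 5 pyrimidines stood in the windows of Rpl39, Rpl13a, Rps9, Rpl12 and Rplp0 in that order. The windows of Rpl3l had runs of 5 and 4. A marked run need not be a TOP tract, which stands at the very start of the mRNA. That of Rplp0 lies wholly before the annotated start.

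Over all members, promoters were matched by gene ID for 50 of 59. A run of at least 8 pyrimidines within 25 bases on either side of the annotated start was present in 24 of 50 members (48.0%), against 22.3% of all genes with a promoter in the RefSeq table and 22.9% of the genes tested here. The ETS core CCGGAAG, searched on both strands of the 300-base promoter, was present in 21 of 50 members (42.0%), against 9.93% of all genes and 19.3% of tested genes. ETS factors such as GABP bind such sites. On the opposite strand this core reads CTTCCGG, whose pyrimidines can form part of a run, and 13 members had both a run and the core. Examples of the core, in capitals, stand in the 30-base windows below, all upstream of the start (GRCm38.p6).
Rpl19: acttagcgtgaCTTCCGGctacccagagga
Rpl37: accaagacccgCCGGAAGtagtttcctggg
Rpl38: gggttaaccgtCCGGAAGcggaagcctcgt
Rps6: ttaatctacgcCCGGAAGtaacgcccctct
They lie at chr11:98026660-98026689 (plus), chr15:5116579-5116608 (plus), chr11:114668549-114668578 (plus) and chr4:86857440-86857469 (minus) in that order. The E-box CACGTG was present in 5 of 50 members (10%, against 8.09% of all genes and 11.95% of tested genes). TATAAA was present in 6 (12%, against 15.7% of all genes and 9.60% of tested genes). The full palindromic oestrogen response element was present in 0 of 50 (against 0.0740% of all genes and 0.0117% of tested genes). Both strands were searched. At such shares almost any 50 genes would give 0, so this count says nothing particular to the members. The pyrimidine runs counted could lie wholly before the start, so they need not be TOP tracts. Members with such a run had a median log2 change of 0.13 in AromhumH versus WT and members without it 0.08. In AromhumH versus AromhumL the medians were 0.12 with the run and 0.15 without it.

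Muscle fibre markers had an array mean of 13.78 to 13.92 in AromhumH, 13.87 to 13.92 in AromhumL and 13.87 to 13.92 in WT (log2 normalized intensity, 13 of 14 markers detected, 0 called). The 5 detected mesothelial markers averaged 7.88 to 8.72 in AromhumH, 6.28 to 7.40 in AromhumL and 6.32 to 7.13 in WT, and 4 of the 5 rose in AromhumH against each other group, while Wt1 had no named probe. The 8 detected markers of proliferating cells averaged 5.91 to 6.40 in AromhumH, 4.87 to 5.26 in AromhumL and 4.95 to 5.94 in WT, and 7 of the 8 rose in AromhumH versus AromhumL. All 8 were above 0 in AromhumH versus WT (median log2 change 0.64), with 0 called. In AromhumL versus WT all 8 were below 0 (median −0.29), with 0 called, as over all genes. There 51.3% of all genes were above 0. Epithelial and skin markers averaged 6.75 to 7.46 in AromhumH, 5.33 to 6.77 in AromhumL and 5.45 to 6.07 in WT, with Krt5 and Epcam not detected, and of the 4 detected 2 rose in AromhumH versus WT and 3 in AromhumH versus AromhumL. The 11 fibroblast markers averaged 10.65 to 11.09 in AromhumH, 10.10 to 10.74 in AromhumL and 10.39 to 10.77 in WT, and 3 of 11 rose in AromhumH versus AromhumL (9 above 0, median log2 change 0.46). The 5 detected erythroid markers averaged 7.26 to 8.45 in AromhumH, 7.05 to 7.71 in AromhumL and 7.41 to 8.45 in WT, with all 5 above 0 in AromhumH versus AromhumL and 0 called. The 6 detected adipocyte markers averaged 7.79 to 10.11 in AromhumH, 8.38 to 8.98 in AromhumL and 8.68 to 9.67 in WT, with all 6 below 0 in AromhumH versus WT and 0 called. Of 11 lymphocyte markers 1 was detected, and the named probes of Cd3e, Cd3d and Ptprc were not. The 10 detected macrophage markers had 9 above 0 in AromhumH versus WT and 8 in AromhumH versus AromhumL, with 0 called. The 6 detected endothelial markers had 3 and 4 above 0 in the same order, with 0 called. Over all genes, 0.879% were called higher in AromhumH versus WT and 4.02% in AromhumH versus AromhumL. Log2 changes above 0 made up 51% and 49.5% of all genes in the same order. Mean raw intensity was 296.1 to 373.2 on AromhumH arrays, 221.6 to 273.9 on AromhumL arrays and 267.4 to 361.7 on WT arrays, so AromhumH arrays were all brighter than AromhumL arrays (two-sided exact permutation p = 0.0286, the smallest that 4 arrays against 4 can give).

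In AromhumH versus WT most members lay above 0 by a small amount, and 0 of 59 passed the test. Of the members, 47 had a log2 change above 0, with a median of 0.12 and a range of −0.17 to 0.50, while 51.0% of all tested genes were above 0 and their median was 0.01. By limma 0 of 59 were called (adjusted p under 0.05) against a background of 1.18% of 10575 genes, with a smallest adjusted p of 0.117. At an unadjusted p under 0.05, 9 members were higher and 0 lower, against 10.1% of all genes higher and 6.6% lower (16.7% in either direction). In 8 members all AromhumH arrays lay above all WT arrays, against 5.34% of all genes, and in 0 members all lay below, against 3.33%. The 95% interval of the change stayed within a log2 change of 1 in either direction for 58 of 59 members, Rpl22l1 being the exception. The detected mesothelial, epithelial and proliferating-cell markers were all above 0 in AromhumH versus WT too, and their part in this result was not tested.

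Of the large subunit genes the smallest p in AromhumH versus WT was that of Rpl19, which bridges the subunits. Rpl19 stood at 10.03, 9.70, 9.64 and 9.77 on the AromhumH arrays and at 9.34, 9.50, 9.44 and 9.28 on the WT arrays (log2 normalized intensity). All AromhumH arrays lay above all WT arrays, by 1.31-fold on average (log2 0.39, SE 0.120, limma adjusted p = 0.117). Rpl3, a core protein near the peptidyl transferase centre, stood at 12.70, 12.63, 12.54 and 12.49 in AromhumH and at 11.98, 12.23, 12.18 and 11.97 in WT. Its groups did not overlap either (log2 0.50, SE 0.159, adjusted p = 0.130), while the AromhumL arrays, at 11.93, 12.52, 12.64 and 12.03, covered nearly both ranges.

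Rpl13a, also known outside the ribosome for silencing inflammatory messages, stood at 8.70, 8.50, 8.85 and 9.05 in AromhumH and at 7.85, 8.41, 8.47 and 8.48 in WT. WT 1 was far below the other WT arrays, and the lowest AromhumH array was just above the highest WT array. The log2 change was 0.47 (SE 0.163, adjusted p = 0.161), and without WT 1 it was 0.32. Rpl39, a short protein lining the exit tunnel, had a log2 change of 0.30 (SE 0.119, adjusted p = 0.217), and Rpl12, at the base of the stalk, 0.33 (SE 0.131, adjusted p = 0.216). The small subunit gene with the smallest p was Rps9, which shapes the mRNA entry channel, at 0.38 (SE 0.137, adjusted p = 0.173), with overlapping groups. None of these 6 members passed.

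**Figure D1:**
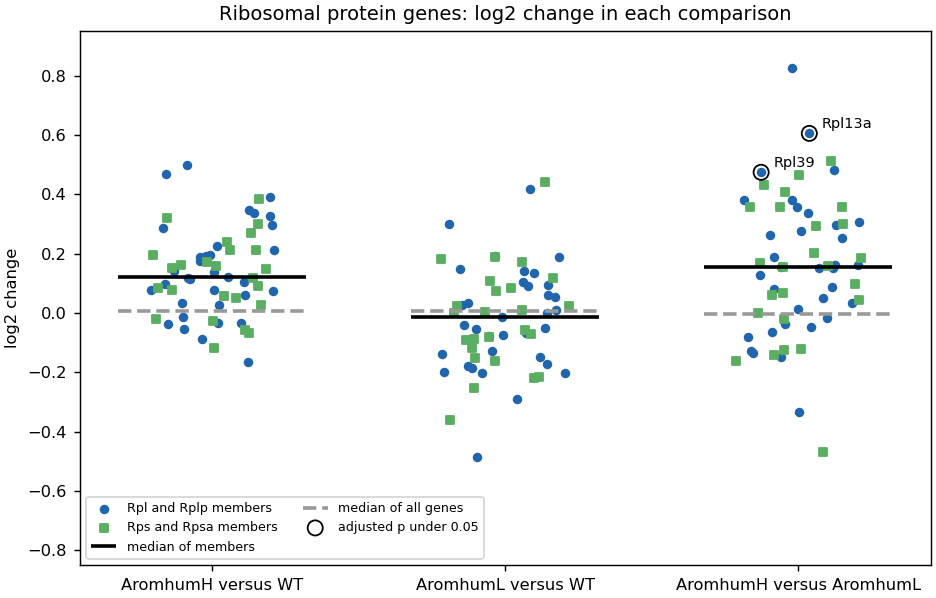
Log2 change (vertical axis) of each of the 59 detected ribosomal protein genes in the 3 comparisons, circles for Rpl and Rplp and squares for Rps and Rpsa genes. Solid bars mark the median of the members (0.12, −0.01 and 0.16) and dashed bars that of all 10575 genes (0.01, 0.01 and −0.00285), and open rings mark the 2 genes with an adjusted p under 0.05.

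In AromhumL versus WT 0 members passed the test, and the members were spread evenly around 0. Of the 59 genes 29 had a log2 change above 0 and 30 below, with a median of −0.01 and a range of −0.49 to 0.44. By limma 0 members were called, as were 0% of all genes, and the smallest adjusted p of a member was 0.570. At an unadjusted p under 0.05, 2 members were higher, Rplp0 and Rpl4, and 0 lower, against 4.76% of all genes higher and 3.61% lower (8.37% in either direction). In Rplp0 and Rpl19 all AromhumL arrays lay above all WT arrays, a pattern of 2.55% of all genes, and in 0 members all lay below, against 1.68%.

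Rplp0, the scaffold of the stalk that recruits elongation factors, stood at 8.46, 8.48, 8.27 and 8.61 in AromhumL and at 8.12, 8.04, 7.93 and 8.06 in WT. Its log2 change was 0.42 (SE 0.125, adjusted p = 0.570) on its brighter probe and 0.11 on its other detected probe. Rpl4, which helps to form the exit tunnel, stood at 0.30 (SE 0.138, adjusted p = 0.592). Of the others with the smallest p, Rps3, at the mRNA entry, was at −0.25, Rps3a1 of the small subunit at −0.36 and Rpl30 of the large subunit at −0.29, each with an adjusted p of 0.605. Rps23rg1, a retrogene copy of Rps23 classed here as no ribosomal protein, was at 0.44 and was detected on 8 of 12 arrays.

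In the comparison of the lines 2 members, Rpl39 and Rpl13a, rose in AromhumH relative to AromhumL, and 0 fell. The background was 4.02% of all genes higher and 2.01% lower (6.03% in either direction), so 2 of 59 was close to the rate over all genes. The median log2 change of the members was 0.16, with 43 of 59 above 0 and a range of −0.47 to 0.83, while the median of all genes was −0.00285. In 20 members all AromhumH arrays lay above all AromhumL arrays, against 7.73% of all genes, and in 2 members, Rpl3l and Rpl4, all lay below, against 8.05% of all genes. At an unadjusted p under 0.05, 18 members were higher, against 13.4% of all genes, and 1, Rpl4, was lower, against 11.6% (24.9% in either direction).

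Rpl39 stood at 13.54, 13.55, 13.46 and 13.73 on the AromhumH arrays and at 13.13, 13.00, 13.06 and 13.19 on the AromhumL arrays. The groups were apart, and WT, at 13.11 to 13.40, lay below all AromhumH arrays and overlapped AromhumL. The rise was 1.39-fold (log2 0.47, SE 0.119, limma adjusted p = 0.0328). Rpl13a stood at 8.70, 8.50, 8.85 and 9.05 in AromhumH and at 8.28, 8.27, 8.04 and 8.09 in AromhumL. Every AromhumH array was above every AromhumL array, by 1.52-fold on average (log2 0.61, SE 0.163, adjusted p = 0.0417). Rpl39 and Rpl13a each rest on a single detected probe.

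Leaving out 1 array left 0 members called in 7 of 12 fits but kept the size of both differences. Over the 12 fits that left out 1 array the log2 change of Rpl39 was 0.42 to 0.51 and that of Rpl13a 0.51 to 0.70. Without AromhumH 1, 2 or 4, or without any of AromhumL 1, 2, 3 and 4, 0 members were called. Without AromhumH 3 the 2 called members were Rpl39 and Rps9. In the model the WT arrays enter this comparison only through the shared spread. They also took part in the normalization, the detection filter and the choice of probe, which used all 12 arrays. The fits without a WT array kept those normalized values, so Rpl39 stayed at 0.47 and Rpl13a at 0.61 in them. Without WT 1, 4 members were called, Rps9 and Rps16 being added. Without WT 2, WT 3 or WT 4 the called members remained Rpl39 and Rpl13a. With the brightness of the array as a covariate 0 members were called, as were 0 of all genes, against 638 genes without it. Rpl39 then stood at 0.42 (SE 0.169, adjusted p = 0.606) and Rpl13a at 0.51 (SE 0.232, adjusted p = 0.616). The median over the members was 0.15. All AromhumH arrays were brighter than all AromhumL arrays, so brightness and line cannot be told apart here. Mesothelial, proliferating-cell, epithelial and fibroblast markers were higher in AromhumH than in AromhumL too, as given above, and their part in these results was not tested.

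Next in order in AromhumH versus AromhumL were Rps16 (log2 0.43, adjusted p = 0.0558) and Rps9 (0.46, adjusted p = 0.0561). Rps9 stood at 12.98, 12.71, 12.76 and 13.14 in AromhumH and at 12.36, 12.46, 12.44 and 12.47 in AromhumL. These arrays did not overlap, and the other detected Rps9 probe stood at 0.34. Rps9 was called in 4 of the 11 alternatives that kept all arrays, Rps16 in 5, Rpl13a in 7 and Rpl39 in 9. Rpl38 (0.36, adjusted p = 0.0686), Rpl30 (0.48, adjusted p = 0.0738) and Rpl37 (0.38, adjusted p = 0.0746), all of the large subunit, did not pass either. The dimmer Rpl30 probe stood at −0.11, and the mean over both probes gave 0.19 (limma adjusted p = 0.450).

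**Figure D2:**
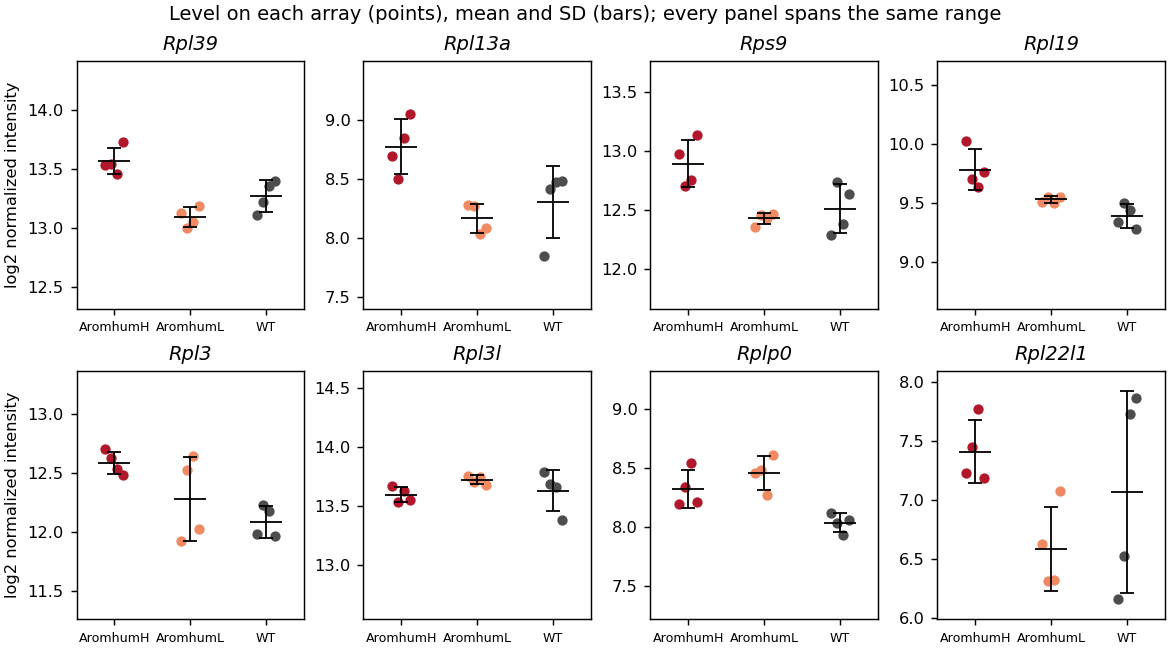
Log2 normalized intensity (vertical axis) of 8 ribosomal protein genes on each array (points) by group, with the group mean and SD (bars, n = 4). Rpl39 and Rpl13a in AromhumH lie above AromhumL on all arrays, Rpl3l stays between 13.38 and 13.79, and Rpl22l1 in WT falls at 6.16 and 6.52 on 2 arrays and at 7.73 and 7.86 on the others.

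The member mean per array showed the same order. It was 11.36 to 11.51 on AromhumH arrays, 11.25 to 11.35 on AromhumL arrays and 11.21 to 11.37 on WT arrays. AromhumH and AromhumL did not overlap, whereas AromhumH 2, at 11.36, lay within the range of WT. Between 33 and 51 of the 59 members were above their own mean over 12 arrays on AromhumH arrays, against 15 to 23 on AromhumL arrays and 12 to 35 on WT arrays. WT 1 was the lowest of all arrays, and the median change in AromhumH versus WT was 0.10 without it. These means rest on members that share arrays and are given as a description.

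**Figure D3:**
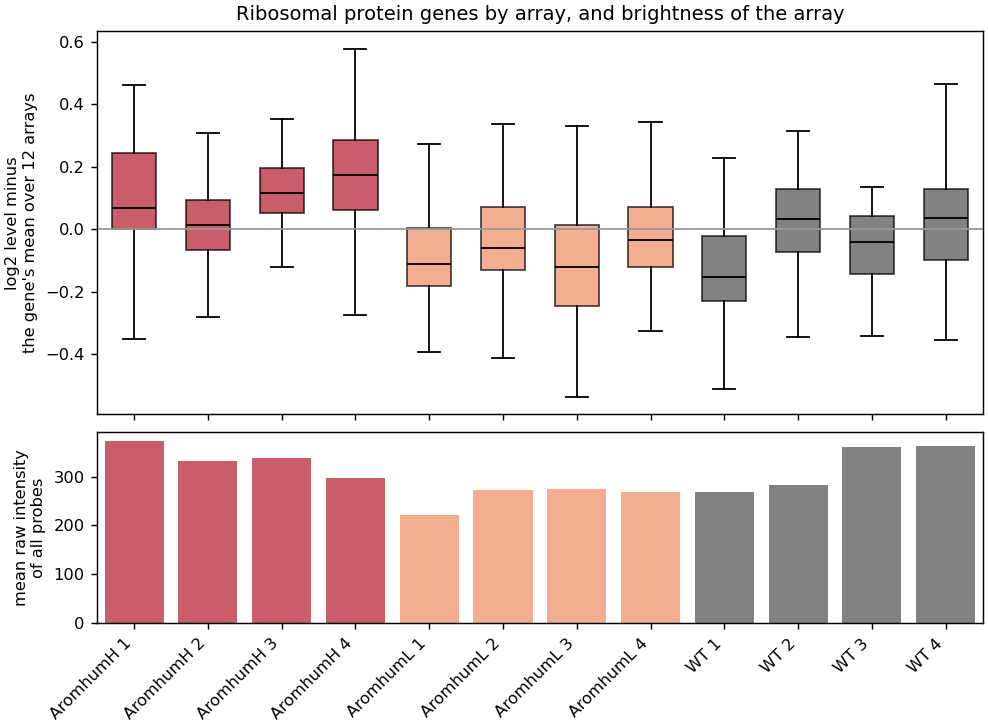
Above, log2 level of the 59 members on each array minus the gene's own mean over 12 arrays (boxes span the quartiles, the line is the median, whiskers reach 1.5 times the box, outlying points not drawn). Below, the mean raw intensity of all probes on that array. Medians run from 0.01 to 0.17 on AromhumH, −0.12 to −0.03 on AromhumL and −0.15 to 0.03 on WT arrays.

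The subunits had similar medians. In AromhumH versus WT the median log2 change was 0.12 over 34 Rpl and Rplp genes, with 27 above 0, and 0.15 over 25 Rps genes, with 20 above 0. In AromhumH versus AromhumL the medians were 0.15 and 0.16, with 25 and 18 above 0. The 3 stalk genes did not share a direction: in AromhumH versus WT Rplp0 was at 0.28 (adjusted p = 0.262), Rplp1 at 0.12 and Rplp2 at −0.17, and 0 passed.

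Of the paralogues, Rpl3l, the form of Rpl3 found in muscle, had small changes. Rpl3l stood at 13.67, 13.53, 13.62 and 13.55 in AromhumH, at 13.76, 13.70, 13.75 and 13.68 in AromhumL and at 13.79, 13.69, 13.66 and 13.38 in WT. Its log2 change was −0.03 in AromhumH versus WT (95% interval −0.29 to 0.22) and −0.13 in AromhumH versus AromhumL (adjusted p = 0.547), where all AromhumH arrays lay below all AromhumL arrays. The change of Rpl3 exceeded that of Rpl3l by 0.53 in AromhumH versus WT and by 0.43 in AromhumH versus AromhumL. All AromhumH arrays lay above all arrays of the other group in this difference (two-sided exact permutation p = 0.0286 for each, the smallest possible, 0.114 adjusted over 12 paralogue comparisons), so it did not pass the correction.

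Rpl22l1, which can replace Rpl22 on the ribosome, had the largest change among all 59 members in AromhumH versus AromhumL and the largest error. It stood at 7.23, 7.44, 7.77 and 7.18 in AromhumH and at 6.62, 6.31, 6.32 and 7.07 in AromhumL, against 6.16, 6.52, 7.73 and 7.86 in WT. The spread within WT covered both lines, and the log2 change of 0.83 between them did not pass (SE 0.317, adjusted p = 0.120). Rpl22 itself stood at −0.15 (adjusted p = 0.595). The difference Rpl22l1 minus Rpl22 was higher by 0.98 in AromhumH than in AromhumL (exact permutation p = 0.0286, 0.114 adjusted over 12).

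The other variants varied less. Rpl36al, a retrogene relative of Rpl36a, was at −0.06 in AromhumH versus WT and Rpl36a at 0.10. Rps27l, which p53 is known to induce, was at 0.12, and Rpl7l1, a relative of Rpl7, at 0.07 on its brighter probe. Rps4l was at 0.27 and X-linked Rps4x at 0.08. Adjusted p-values of these 6 ranged from 0.442 for Rps4l to 0.852 for Rpl36al, and Rps4l was detected on 9 of 12 arrays.

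Members that often serve as reference genes in quantitative PCR had these values. Rpl13a differed between the lines as given above, and Rplp0 was at 0.28 in AromhumH versus WT and 0.42 in AromhumL versus WT without passing. Rpl19 was at 0.39 in AromhumH versus WT, and Rpl32 at 0.18 (95% interval −0.09 to 0.44). Rps6, the substrate of the S6 kinases, was at 0.08 in AromhumH versus WT (95% interval −0.26 to 0.43).

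The array's range bears on a few members. The brightest probes were those of Rpl41, Rplp1 and Rps29, with raw intensities up to 32128.5 for Rpl41, and their log2 changes in AromhumH versus WT were −0.01, 0.12 and 0.05. The dimmest were those of Rps4l, Rps23rg1 and Rpsa, the last a small subunit protein first described as a laminin receptor, with raw intensities of 77.8 to 108.6. Rpsa was detected on 8 of 12 arrays, so its probe reads close to background and its changes (0.03 in AromhumH versus WT and 0.19 in AromhumL versus WT) are uncertain. Rps19bp1, a regulator of the deacetylase Sirt1 and no ribosomal protein although the symbol rule takes it, was at 0.06. Rps23rg1 was likewise classed as no ribosomal protein. Without Rps19bp1 and Rps23rg1 the median in AromhumH versus WT was 0.14 over 57 genes.

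Several probes were detected for 15 of the 59 members, so agreement between probes can be read for these alone. Of the 15, 12 had all probes on the same side of 0 in AromhumH versus WT, 8 in AromhumL versus WT and 9 in AromhumH versus AromhumL. The largest disagreements were in AromhumH versus AromhumL. Rpl30 stood at 0.48 on its brighter probe and −0.11 on the other, Rplp0 at −0.13 and 0.38, Rps3 at 0.19 and 0.68, and Rpl21 at −0.02, 0.13 and 0.42. The dimmer Rps3 probe passed when every probe was tested on its own (adjusted p = 0.0337 over all detected probes) while the brighter did not. The mouse genome carries many processed pseudogenes of these genes, 306 with a ribosomal protein -ps symbol in the RefSeq table, and a probe may read such a copy too.

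**Figure D4:**
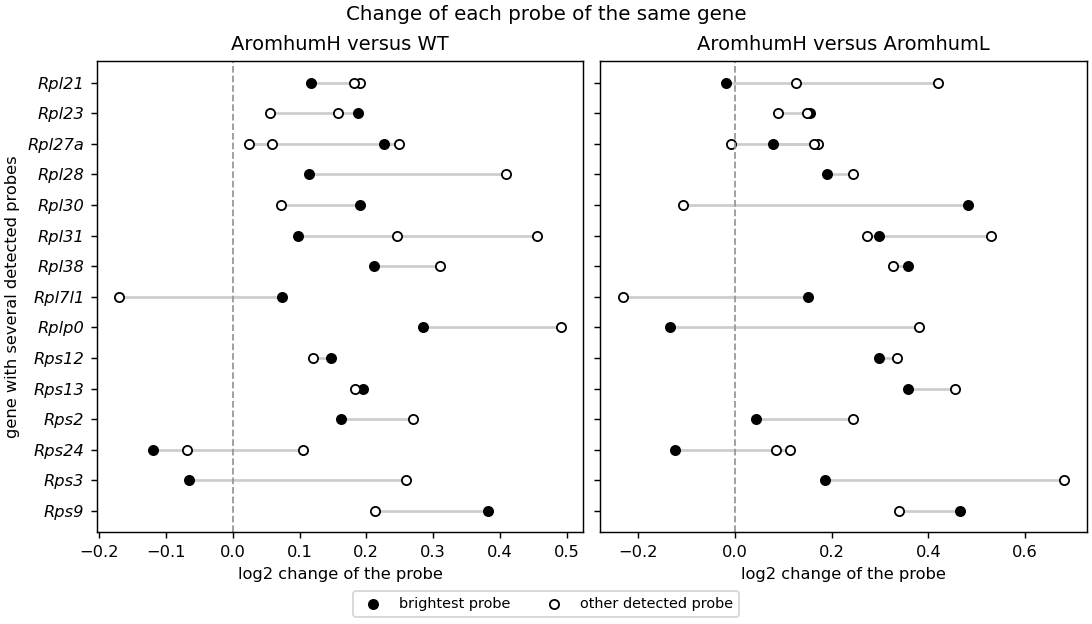
Log2 change (horizontal axis) of each detected probe of the 15 ribosomal protein genes with several detected probes, in AromhumH versus WT (left) and AromhumH versus AromhumL (right). Filled points are the brightest probe of a gene, open points the others, and the widest gap is that of Rpl30 in AromhumH versus AromhumL, with probes at 0.48 and −0.11.

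Other genes of ribosome production and translation were set beside the members. The 73 detected mitochondrial ribosomal protein genes, which build the separate ribosome of mitochondria, had a median log2 change of −0.06 in AromhumH versus WT, with 50 of 73 below 0. Of these 1 fell, Mrpl45, a large subunit protein of that ribosome (log2 −0.67, SE 0.153, limma adjusted p = 0.0472), and 0 rose, against backgrounds of 0.303% and 0.879%. In AromhumH versus AromhumL the median was −0.13, and 0 of 73 were called. In both comparisons the mitochondrial median lay below 0 and the cytosolic one above, and the difference between the lists was not tested.

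Of 49 ribosome biogenesis factors 0 were called in any comparison. Over all genes 1.18% were called in AromhumH versus WT, 0% in AromhumL versus WT and 6.03% in AromhumH versus AromhumL. The medians of the factors were 0.03, −0.03 and 0.08 in the same order. The smallest p in AromhumH versus WT was that of Ppan, a factor of large subunit assembly (log2 0.67, adjusted p = 0.0568). Of 17 elongation factors and other TOP mRNAs 1 rose in AromhumH versus AromhumL, Pabpc1, the poly(A)-binding protein (log2 0.74, SE 0.184, adjusted p = 0.0322), against 4.02% of all genes called higher. Eef1a1, the elongation factor that delivers aminoacyl-tRNA, stood at 0.52 (adjusted p = 0.0529) and Eef2, the translocase, at −0.67 (adjusted p = 0.116). The list had 13 of 17 genes above 0 in this comparison, with a median of 0.10, against 49.5% of all genes above 0.

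Of 18 initiation factors 1 rose in AromhumH versus AromhumL, Eif5a, which relieves stalled ribosomes (log2 0.56, SE 0.148, adjusted p = 0.0401), against the same 4.02%. A single call in lists of 17 and 18 genes is near that background. The list had a median of −0.000341 in AromhumH versus WT with 0 called, and its smallest p there was that of Eif1a (0.61, adjusted p = 0.0838). Of 19 genes of mTOR and MYC control 0 were called in any comparison, against the shares over all genes given above. Mtor, the kinase itself, stood at −0.27 in AromhumH versus WT (adjusted p = 0.298). Of 10 chaperones and import factors of ribosomal proteins 0 were called, against the same shares. The smallest p in AromhumH versus WT was that of Tsr2, the escort of Rps26 (log2 −0.41, adjusted p = 0.115). At an unadjusted p under 0.05 in AromhumH versus WT, 6 of 49 biogenesis factors were higher and 0 lower, 5 of 18 initiation factors higher and 1 lower, and 0 of 19 genes of mTOR and MYC control higher and 2 lower, against 10.1% of all genes higher and 6.6% lower.

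**Figure D5:**
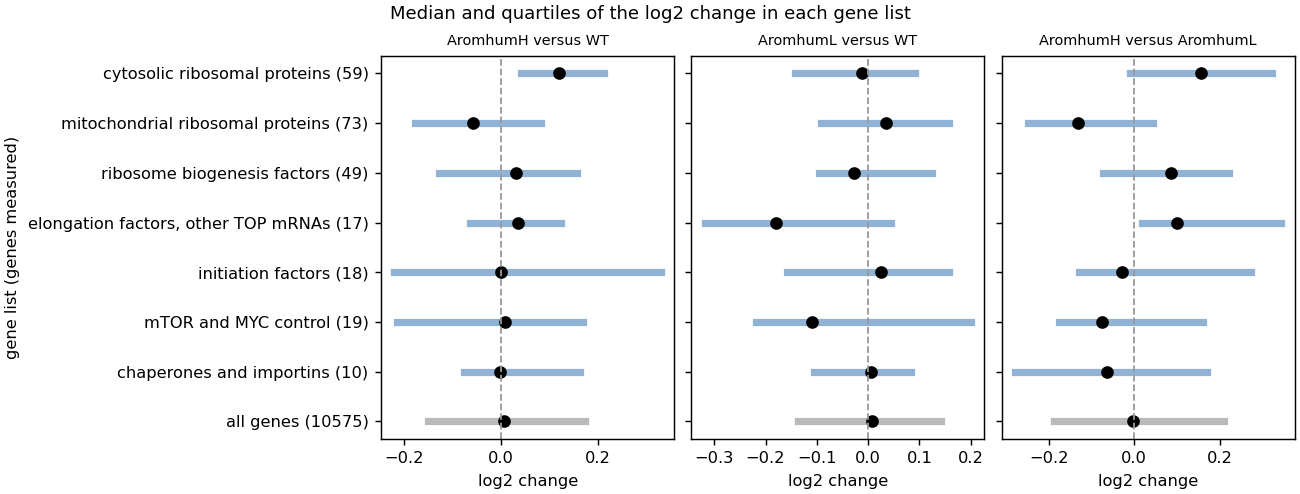
Median (point) and quartiles (bar) of the log2 change (horizontal axis) over the genes of each list, with the number of genes measured, in the 3 comparisons, and the same for all 10575 genes in grey. Cytosolic ribosomal protein genes have medians of 0.12, −0.01 and 0.16, and mitochondrial ones of −0.06, 0.03 and −0.13.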

How the data were processed

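For every probe the authors deposited an intensity on each array, not yet normalized between arrays, and a detection p-value beside it, per the file headers. The deposited processed values look like log2 values, and their transformation is not given in the sources used here. The same holds for the scanner software and the position on the chip, so no slide effect was tested. Intensities were corrected and quantile-normalized with neqc of limma 3.58.1 (R 4.3.3, offset 16), which makes arrays share 1 distribution and hides any shift common to all genes.

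Of 45281 probes, 19004 were detected (p under 0.05 on at least 4 arrays). Each gene was read from its brightest detected probe with 1 symbol in the platform annotation, which left 10575 genes. The model had 1 mean per group over 12 arrays (limma's lmFit and eBayes), with Benjamini-Hochberg adjustment across the 10575 genes. A gene was called at an adjusted p under 0.05, and every adjusted p of a gene is from limma. A change is the first-named group minus the second, on the log2 scale. The median SE of a member's change was 0.13. The fit was tested on simulated data.

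Members and lists were chosen with earlier results of these data known, so no list was tested as a set. Members named are those called, or else the 6 with the smallest p per comparison, together with a fixed set of paralogues, stalk, reference and signalling-target genes, the 4 with the largest disagreement between probes, and the 3 brightest and 3 dimmest. Rps16, Rpl37 and Rpl38, and Eef1a1, Eef2 and Mtor of the lists, were added after their values were seen. RefSeq lists 89 protein-coding genes that fit the symbol rule, and 64 of them had a named probe. The others were not analysed here.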

Additional observations from a re-analysis of the deposited data

Results flagged for a closer look

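Rpl13a was at 7.85 on WT 1, far below the 8.41 to 8.48 of the other WT arrays. Rpl36a was at 11.52 on AromhumH 4, below the 11.71 to 11.75 of the other AromhumH arrays. Rpl32 was at 13.40 on WT 2, above 13.08 to 13.10 on the others. Rpl41 was at 14.69 on AromhumH 1, above 14.34 to 14.39 on the others. In each case 1 array stood apart from the other 3 of its group by Dixon's ratio test at the 95% level. Of 93 groups of arrays examined, 4 had such an array, and chance alone gives about 1 in 20 groups.

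The flag for a change relative to WT that differs between the lines fell on 2 members. WT cancels in it, so it is the AromhumH versus AromhumL test given above and no further result. Against WT neither gene passed in AromhumH (limma adjusted p = 0.161 for Rpl13a and 0.217 for Rpl39) or in AromhumL (0.816 and 0.661). The difference was 0.61 for Rpl13a (adjusted p = 0.0417 by limma) and 0.47 for Rpl39 (adjusted p = 0.0328 by limma), with every AromhumH array above every AromhumL array in each.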

How the results depend on the processing

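The number of arrays limits the precision. In AromhumH versus WT and in AromhumL versus WT, 0 members were called in each of the 23 alternatives, and in all 3 comparisons the alternatives moved the members' median by less than the spread between arrays of a group. The smallest adjusted p of a member in AromhumH versus WT was 0.117 by limma. It came close to the threshold without background correction (0.0505) and on the deposited processed values (0.0544). In AromhumH versus AromhumL, 2 members were called, against 7 on the deposited processed values, 8 without background correction, 7 with the trend and robust options, 4 with array weights, 0 with the brightness covariate and 1 with the replicate block, and 0 to 4 on leaving out 1 array. Over all genes, 125 were called in AromhumH versus WT, against 76 on the deposited values, 36 without the detection filter, 69 with the brightness covariate and 2 (without AromhumH 2) to 316 (without AromhumH 3) on leaving out 1 array. In AromhumH versus AromhumL, 638 were called, against 347, 210 and 0 in the same order, 958 with array weights and 64 (without AromhumL 1) to 1060 (without AromhumH 3) on leaving out 1 array. The cause was not tested. Rpl39 did not pass with median scaling (adjusted p = 0.0835), and Rpl13a did not on the deposited values (0.0515), without the detection filter (0.0753) or with the replicate block (0.0585). In fits that left out 1 array the adjusted p of Rpl39 was 0.0266 to 0.104 and that of Rpl13a 0.0186 to 0.125. With median scaling Rpl30 passed (0.0495). Most same-numbered arrays did not deviate together: 2 of 12 correlations were over 0.1, with a range of −0.25 to 0.39. Arrays of different number gave −0.25 to 0.30. No pairing by number was visible, but these correlations cannot exclude one, and the labels do not say what the numbers mean.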
